A study of Homo sapiens with 12 samples.

Results

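In human SV-HUC-1 cells, 1014 of 186427 tiles of 1 kb on chromosomes 1 to 22 made up the class with the highest repeatable 5-hydroxymethylcytosine (5hmC), which is 0.544% of the tiles. A tile is a fixed window of 1000 bp that held at least 5 CpGs in the 5hmC table. A tile was chosen where its mean 5hmC level was at least 5% in each of the 6 sample columns and at least 10% on average over the 6. The measured 5hmC of all 6 columns chose these tiles, so their 5hmC level is a description and carries no test. Any 5hmC p-value given for a chosen tile comes from the same columns and is descriptive too.

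SV-HUC-1 is a line of human urothelial epithelial cells, the lining of the urinary tract, immortalised with SV40. The cells were exposed to 2,6-Dichloro-1,4-benzoquinone (DCBQ), a halogenated quinone formed during disinfection of drinking water, and control cells to a blank solution, in both cases for 3 days. Each condition had 3 libraries of reduced representation bisulfite sequencing (RRBS), which reads 5-methylcytosine (5mC) and 5hmC together in CpG-rich fragments, and 3 of oxidative RRBS, which reads 5mC alone. The 12 libraries came to 6 columns of 5mC and 6 of 5hmC (control 1 to 3 and DCBQ 1 to 3), and all cells belong to this single immortalised line. Separate cultures are not named in the labels, and p-values therefore cover only the variation among these samples, part of which may be technical. The read depth of each CpG is unknown. No RNA was read here, so the urothelial identity of the cells was not checked by marker expression.

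5hmC is made from 5mC by the TET dioxygenases, which need iron and 2-oxoglutarate, and it is an intermediate on the way to unmethylated cytosine. In tissues it is known to be high at enhancers and in the bodies of active genes and low at unmethylated CpG islands, and cultured, dividing cells usually hold little of it. A site can carry 5hmC only where it is methylated in some of the cells, so both marks are given for every tile described.

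Few of the chosen tiles held the start of a gene, and the letters around those that did show what kind of sequence was read. Among 33725 RefSeq promoter windows on these chromosomes, 31 overlapped a chosen tile, and 15 protein-coding genes were among them. Shown here are the 250 bases before the start of the 4 protein-coding genes that had at least 2 measured CpGs of the chosen tile in that stretch. The letters are RefSeq's for GRCh38.p14, on the gene's strand from 5′ to 3′, with each measured CpG of the chosen tile in capitals. FGF1 encodes a fibroblast growth factor (chr5:142686091-142686340, minus strand). SCIN encodes scinderin, which severs actin filaments (chr7:12570470-12570719, plus strand). PRRT4 encodes a proline-rich transmembrane protein (chr7:128361984-128362233, minus strand), and ZNF575 a zinc finger protein (chr19:43532938-43533187, plus strand).
FGF1: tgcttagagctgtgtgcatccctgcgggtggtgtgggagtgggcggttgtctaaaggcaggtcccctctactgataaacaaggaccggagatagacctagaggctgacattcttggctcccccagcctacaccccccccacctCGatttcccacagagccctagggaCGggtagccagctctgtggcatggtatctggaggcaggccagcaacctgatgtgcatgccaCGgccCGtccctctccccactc
SCIN: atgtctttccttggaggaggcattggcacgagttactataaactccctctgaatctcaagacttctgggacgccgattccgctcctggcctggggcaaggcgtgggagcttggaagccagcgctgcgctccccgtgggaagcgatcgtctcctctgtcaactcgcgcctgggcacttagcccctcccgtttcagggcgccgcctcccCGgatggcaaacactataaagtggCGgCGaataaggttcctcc
PRRT4: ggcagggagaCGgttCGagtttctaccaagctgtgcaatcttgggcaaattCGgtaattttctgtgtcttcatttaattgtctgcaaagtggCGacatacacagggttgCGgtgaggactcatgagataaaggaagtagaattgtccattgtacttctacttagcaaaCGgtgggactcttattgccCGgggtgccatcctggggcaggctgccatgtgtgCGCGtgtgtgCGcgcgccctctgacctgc
ZNF575: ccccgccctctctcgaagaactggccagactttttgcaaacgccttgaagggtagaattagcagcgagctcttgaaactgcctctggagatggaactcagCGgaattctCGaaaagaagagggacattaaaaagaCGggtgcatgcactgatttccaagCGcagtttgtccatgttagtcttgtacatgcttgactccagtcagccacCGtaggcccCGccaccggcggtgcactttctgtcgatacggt

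The positions in the tables matched these letters, as all 306708 measured CpGs inside the promoter windows lay at a CG of the RefSeq sequence. The 4 stretches held 7 CpGs (FGF1), 18 (SCIN), 12 (PRRT4) and 14 (ZNF575), against a median of 11 over all windows of this length. Each held CCGG, the site of the enzyme MspI that is usual in RRBS, at 1 place, and 58.5% of all such windows hold it. CCGG reads the same on both strands and contains a CG.

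The PRRT4 tile had 12 CpGs, and 10 of them lay in the printed stretch. There 5hmC averaged 11.03% and 5mC 41.45% over the 6 samples. In the whole PRRT4 tile 5hmC was 22.32%, 5.47% and 12.44% in controls and 10.07%, 6.17% and 7.56% with DCBQ. The control values lay both above and below the DCBQ values, and the groups overlapped. In the ZNF575 tile, with 27 CpGs, 5hmC was 5.68%, 7.95% and 12.78% in controls and 5.93%, 11.73% and 17.41% with DCBQ. These groups overlapped too, and the 6 CpGs in capitals averaged 11.67% 5hmC and 73.09% 5mC. The SCIN tile, also with 27 CpGs, read 7.0%, 15.85% and 20.85% in controls and 8.88%, 14.6% and 5.29% with DCBQ. Its 3 CpGs in capitals averaged 5.73%, below the 12.08% of the whole tile. The FGF1 tile, with 5 CpGs, read 19.79%, 5.73% and 13.48% in controls and 12.37%, 8.36% and 20.75% with DCBQ. None of the capital CpGs in the 4 stretches was above 0 in all 6 samples.

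The chosen tiles stood at intermediate methylation and were poor in CpGs. Their median 5mC was 60.3% (quartiles 49.1% and 70.2%), against 78.5% (58.4% and 86.9%) over all tiles. Of the chosen tiles, 62.7% had 5mC between 40% and 70%, a range that held 17.1% of all tiles. Within that range 2.0% of the tiles were chosen, compared with 0.365% below it and 0.212% above it. No tile with under 10% 5mC was chosen among 21351, and 1 was chosen among 27488 with 90% or more.

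**Figure D1:**
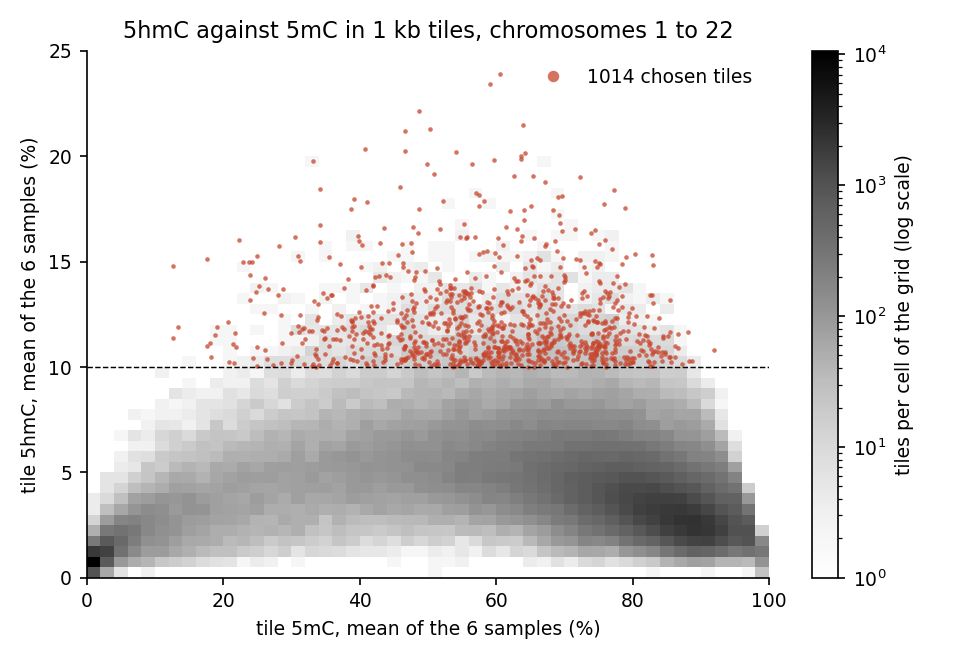
Mean 5hmC of each 1 kb tile (y axis, %) against its mean 5mC (x axis, %), over the 6 samples. Grey cells give the number of tiles on a log scale, red points are the 1014 chosen tiles, and the dashed line is the 10% that the rule asks for on average. The chosen tiles are most frequent between 40% and 70% 5mC and are missing at the unmethylated end.

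The mean 5hmC of all tiles followed the same arc, rising from 1.16% in tiles with under 10% 5mC to 5.99% at 40% to 50% and falling to 2.79% at 90% or more. Of the single 5hmC values of all tiles 55.5% were 0. The part of measurement error in this arc, and in the 5mC level of the chosen tiles, was not tested. Grey tiles above the dashed line reached 10% on average but had at least 1 column under 5%. There were 1522 of these, against the 1014 chosen.

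The median chosen tile held 7 measured CpGs (quartiles 5 and 10), whereas the median over all tiles was 9 (6 and 16). Of tiles with 5 CpGs 0.956% were chosen, of those with 10 to 14 CpGs 0.504%, and of those with 50 or more 0.0291%. The fall with CpG number was also seen within 40% to 70% 5mC, where 2.33% of tiles with 5 to 9 CpGs, 1.89% with 10 to 19 and 0.58% with 20 or more were chosen. A mean over few CpGs has a wider error, and the part of this error in the choice was not tested. The mean 5hmC of all tiles in that 5mC range changed little with CpG number, from 5.8% at 5 to 9 CpGs to 5.36% at 20 or more.

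**Figure D2:**
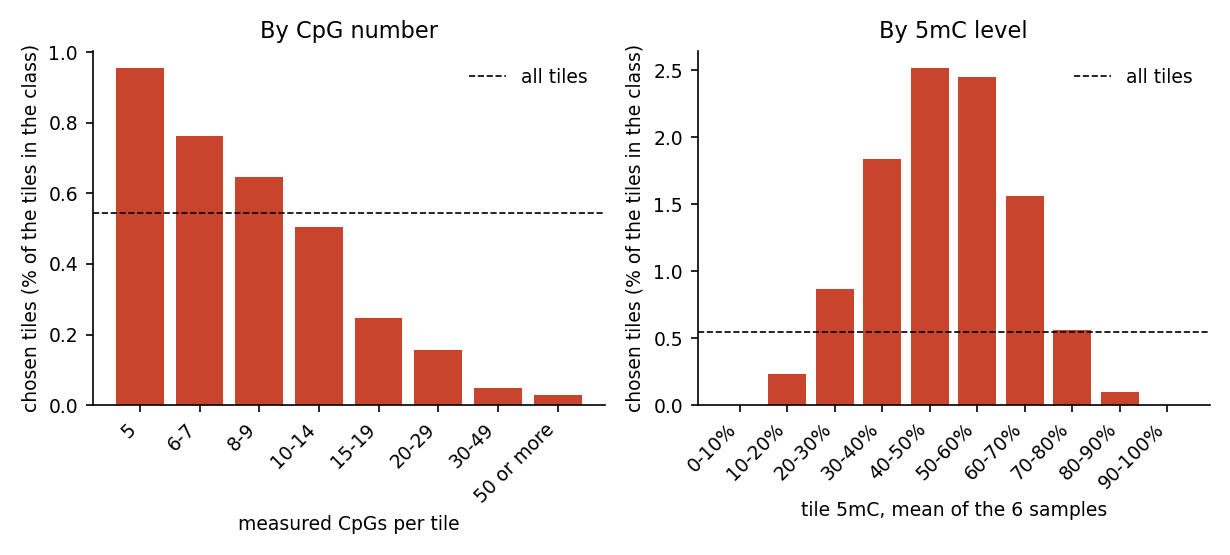
Share of tiles that were chosen (y axis, %) by the number of measured CpGs per tile (left) and by mean 5mC (right); the dashed line marks 0.544%, the share over all tiles. The share falls from 0.956% at 5 CpGs to 0.0291% at 50 or more, and peaks at 2.52% for 40% to 50% 5mC.

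By position, 47 chosen tiles (4.64%) lay within 1500 bp of the start of a protein-coding gene, against 13.9% of all tiles. Another 396 (39.1%, against 47.1%) lay elsewhere in the span of a protein-coding gene. The span of a non-coding gene or pseudogene alone held 171 (16.9%, against 11.5%), and 400 (39.4%, against 27.4%) lay outside every gene span. Among tiles with 40% to 70% 5mC these classes differed less: 1.43% of tiles near a start were chosen, 2.2% of the others in protein-coding spans, 1.93% in other spans and 1.95% outside genes. Exons, introns and enhancers were not analysed here. By chromosome, the chosen share ran from 0.323% on chromosome 16 to 1.06% on chromosome 21, with 34 chosen tiles on the latter. Within 5 Mb of the longest stretch of a chromosome without measured CpGs 0.761% of tiles were chosen, and within 5 Mb of the first or last measured CpG 0.414%. Among tiles with 40% to 70% 5mC these shares were 1.9% and 1.46%, against 2.0% of that range.

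The rule fixes a high level in the columns it reads, so the level was also read in values that the rule did not use. When the rule was applied to 5 columns and the tiles were read in the column left out, their mean 5hmC was 8.62% in control 1, 9.27% in control 2 and 8.62% in control 3. It was 8.97%, 9.05% and 9.79% in DCBQ 1 to 3. Every left-out mean lay below the means in the 5 columns used, which were 12.23% to 12.33%. They also lay above the same column's mean over all tiles, 3.65% to 4.06%, and over tiles with 40% to 70% 5mC, 5.61% to 6.01%. Between 72.7% and 78.0% of the tiles reached 5% in the column left out, compared with 23.7% to 29% of all tiles and 48.3% to 53.7% of those with 40% to 70% 5mC.

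**Figure D3:**
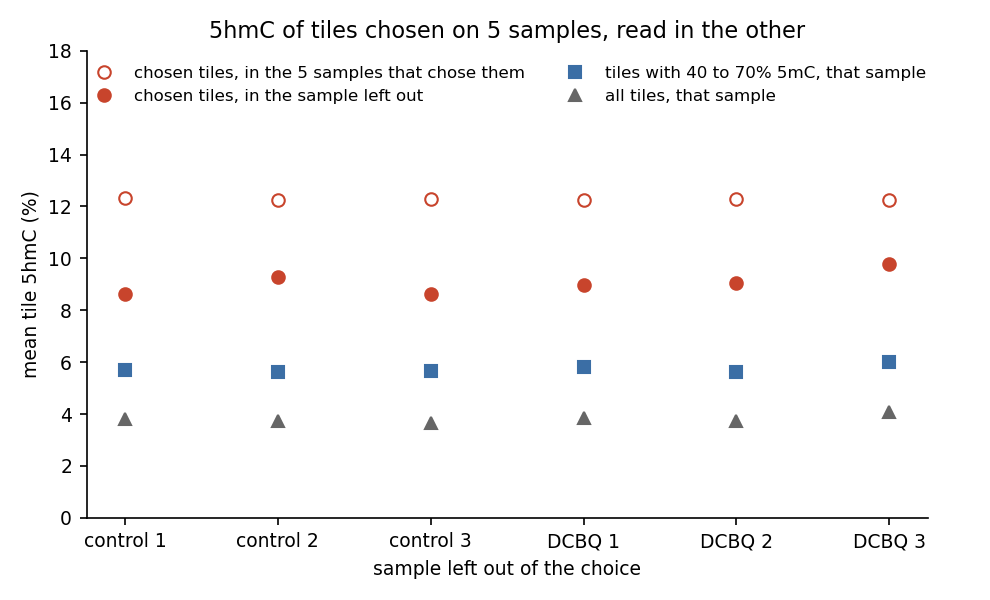
Mean 5hmC (y axis, %) of tiles chosen on 5 samples, by the sample left out (x axis). Open circles are the chosen tiles in the 5 samples used, filled circles the same tiles in the sample left out, squares tiles with 40% to 70% 5mC and triangles all tiles in that sample. In each of the 6 samples the filled circle (8.62% to 9.79%) lies between the open circle and the square.

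The same was done across conditions. The 2385 tiles that met the thresholds in the 3 control columns averaged 12.42% there and 8.43%, 8.67% and 9.3% in DCBQ 1 to 3. The 3016 tiles that met them in the 3 DCBQ columns averaged 12.48% there and 7.8%, 8.3% and 7.89% in control 1 to 3. Tiles chosen in either condition were lower in the other, with DCBQ minus control at −3.616 and 4.483 percentage points, and both sets stayed above the level of all tiles.

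Within tiles, the level was also partly shared between neighbouring CpGs. Tiles chosen on every other CpG, those of odd rank, averaged 12.52% in the CpGs used and 9.11% in the CpGs of even rank, where all tiles averaged 3.76%. In the opposite direction, 1040 tiles averaged 12.87% in the CpGs used and 8.99% in the others. CpGs of a tile can lie on the same sequenced fragment, so the CpGs used and those left out share their reads in part.

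Single CpGs rarely met the thresholds that their tile met. The 1014 tiles held 8510 CpGs, of which 706 (8.3%) were at 5% or more in all 6 columns, against 0.493% of the CpGs of all tiles. In 514 tiles no CpG did so, in 500 at least 1 did, and in 33 at least 3 did. Of the single values in these tiles, 34.2% were 0, compared with 55.5% over all tiles. The deposited level thus varied from CpG to CpG and from sample to sample below the tile mean.

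The chosen tiles were mostly single. Of the 1014, 1002 had no chosen tile next to them, and the other 12 formed 6 pairs. Measured tiles 1 kb away averaged 4.77% 5hmC (340 tiles) and those 2 kb away 4.3% (247 tiles), against 12.26% in the chosen tiles. The last value was raised by the choice, and tiles chosen on 5 columns read 8.62% to 9.79% in the column left out. Beside tiles with 40% to 70% 5mC that were not chosen, which averaged 5.6%, the values were 4.41% and 4.33%. The tile grid is arbitrary: with the grid moved by 500 bp, 989 tiles met the rule, and they overlapped 690 of the 1014.

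**Figure D4:**
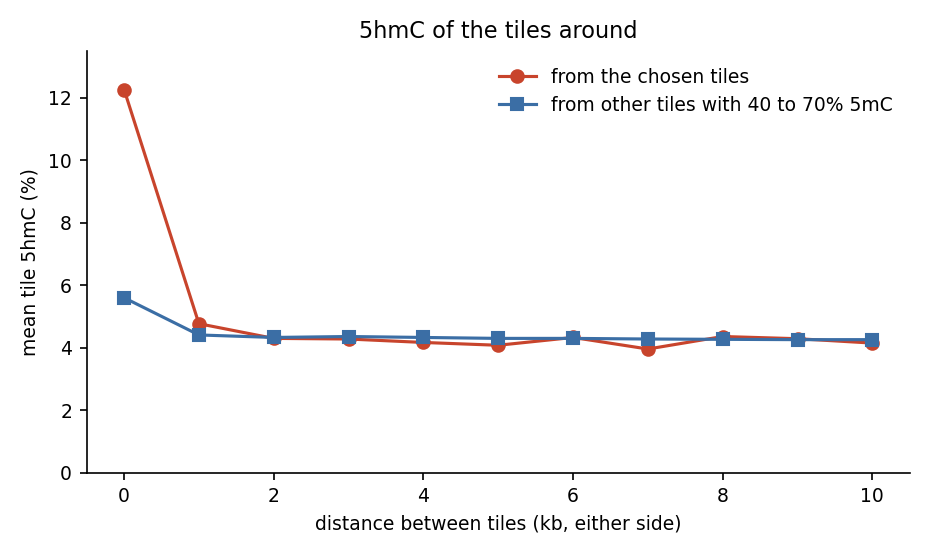
Mean 5hmC (y axis, %) of measured tiles by distance (x axis, kb on either side) from the 1014 chosen tiles (circles) and from other tiles with 40% to 70% 5mC (squares). From 2 kb outwards the circles lie between 3.96% and 4.36% and the squares between 4.26% and 4.36%.

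Of the 6 pairs, the one with the highest mean 5hmC lay at LOC105379473 on chromosome 16, where the tile from 33385001 to 33386000 had 18 CpGs. Its 5hmC was 11.62%, 9.05% and 25.3% in controls and 17.09%, 18.61% and 15.09% with DCBQ. The next tile, from 33386001, had 9 CpGs and read 13.76%, 23.31% and 8.04% in controls and 9.33%, 14.91% and 13.05% with DCBQ. The CpGs of the former lay from 33385851 to 33386000 and those of the latter from 33386004 to 33386072. The grid edge thus cut a single short stretch of CpGs. The groups overlapped in both tiles, and the sample that was highest in the first (control 3) was lowest in the second. Both tiles lay within 5 Mb of the longest stretch of that chromosome without measured CpGs. The next 2 pairs by mean 5hmC, from 82251001 on chromosome 14 and from 103188001 in the non-coding gene LINC01492 on chromosome 9, had tile means between 12.1% and 14.54%. The CpGs of the chromosome 14 pair also met at the grid edge, from 82251916 to 82251986 and from 82252017 to 82252082. Those of the chromosome 9 pair lay further apart, from 103188012 to 103188056 and from 103189053 to 103189326.

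The tiles with the highest 5hmC mostly rested on few CpGs and spread widely between samples. The highest of all lay in KALRN, which encodes kalirin, a guanine nucleotide exchange factor (chromosome 3, 124048001 to 124049000, 5 CpGs). Its 5hmC was 9.17%, 37.76% and 21.5% in controls and 20.67%, 12.56% and 41.86% with DCBQ, a mean of 23.92%. Both groups held a low and a high sample. The 5 CpGs of this tile lay close together, between 124048574 and 124048638, so they may share reads. Its 5mC was lowest in DCBQ 3, the sample with the highest 5hmC, at 75.78%, 53.68% and 67.26% in controls and 68.68%, 62.28% and 35.96% with DCBQ. In SORBS2, which encodes an adaptor of the actin cytoskeleton (chromosome 4, from 185596001, 7 CpGs), 5hmC was 7.48%, 40.08% and 20.05% in controls and 20.83%, 13.85% and 26.53% with DCBQ. As in KALRN, control 1 was the lowest of the 6 samples and control 2 the highest of the controls. In SORBS2 control 2 was also the highest of all 6, and the groups overlapped.

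POM121C, which encodes a membrane protein of the nuclear pore (chromosome 7, from 75449001, 5 CpGs), read 23.93%, 24.9% and 24.62% in controls. With DCBQ the same tile read 20.8%, 5.9% and 27.58%. The controls were close together and the DCBQ samples were spread around them. GRIK1 encodes a subunit of kainate-type glutamate receptors, and its highest tile (chromosome 21, from 29656001, 5 CpGs) read 31.82%, 30% and 21.85% in controls and 16.39%, 11.92% and 8.08% with DCBQ. All control samples lay above all DCBQ samples, at 27.89% ± 5.31 and 12.13% ± 4.16 (SD, n = 3 each). The difference was −15.76 percentage points (limma standard error 11.32, unadjusted p = 0.196). A limma standard error joins the spread of the tile itself with that of tiles of similar mean level. The ZNF367 tile (chromosome 9, from 96406001, 6 CpGs) had 4 CpGs at 5% or more in all samples, and its 5hmC was 25.71%, 13.89% and 36.11% in controls and 15.62%, 18.15% and 9.65% with DCBQ. Its groups overlapped.

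ATP9B encodes a P-type ATPase of the lipid flippase family, and its tile (chromosome 18, 79068001 to 79069000), within 1500 bp of a start, was the only one of the 12 highest with more than 7 CpGs. It had 19, and its 5hmC was 14.23%, 21.28% and 24.85% in controls and 19.58%, 27.78% and 14.37% with DCBQ. The groups overlapped, with means of 20.12% ± 5.41 and 20.58% ± 6.76 (SD, n = 3 each), and 5mC was 43.69% ± 7.69 and 37.82% ± 6.96. The other 6 of the 12 highest tiles lay in no protein-coding gene and had means of 20.14% to 23.42%.

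A tile mean rests on more values where it has many CpGs, but CpGs on the same fragment share reads. The 3 chosen tiles with the most CpGs were looked up after their values were seen. The MKNK2 tile had 61 CpGs (chromosome 19, 2042001 to 2043000), and the gene encodes a kinase that phosphorylates a translation initiation factor. There 5hmC was 12.88%, 12.88% and 9.16% in controls and 9.69%, 11.1% and 13.83% with DCBQ. The groups overlapped closely, at 11.64% ± 2.15 and 11.54% ± 2.1 (SD, n = 3 each), and 9 of the 61 CpGs were at 5% or more in all 6 samples. Its 5mC ran from 40.02% to 46.53%, and its CpGs in the 5hmC table lay between 2042008 and 2042829. The second, with 53 CpGs, lay in non-coding genes on chromosome 21 (from 13705001), with 5hmC between 5.65% and 17.29%. The third had 51 CpGs, lay outside every gene on chromosome 18 (from 79637001) and read 5.41% to 16.26%.

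A stricter rule, 10% or more in each of the 6 samples, was met by 34 tiles. The ATP9B tile had the most CpGs of these. The second (chromosome 1, from 214734001, 14 CpGs), outside every gene, read 11.71%, 16.51% and 10.65% in controls and 11.56%, 12.13% and 14.93% with DCBQ. A tile in NOS1, which encodes the neuronal nitric oxide synthase (chromosome 12, from 117326001, 8 CpGs), read 14.54%, 16.07% and 18.12% in controls and 14.58%, 20.59% and 16.76% with DCBQ. In both tiles the groups overlapped, and the SD over the 6 samples was 2.28 and 2.31 percentage points, against a median of 4.63 over all chosen tiles.

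The genes near the chosen tiles were mostly hit by a single tile. In all, 435 genes lay within 1500 bp of a chosen tile, of 17379 within that distance of any tile. There were 30 genes with at least 2 chosen tiles and 8 with at least 3. The count favours genes that hold many measured tiles, so the number of tiles is given beside it. PTPRN2, which encodes a phosphatase-like protein of secretory granules, had 8 of its 263 tiles chosen. DLGAP2, a scaffold protein of synapses, had 6 of 141, and another 6 genes had 3 each. Of these 6 the 3 with the highest mean 5hmC in their chosen tiles are named: GRIK1 had 3 of 13 tiles chosen, ROBO1, the receptor for SLIT guidance cues, 3 of 34, and DLG2, another synaptic scaffold, 3 of 54.

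The 8 PTPRN2 tiles lay between 157676001 and 158445000 on chromosome 7 and had means of 10.16% to 15.48%. The one with 13 CpGs (from 158357001) read 7.47%, 11.68% and 9.09% in controls and 8.22%, 11.28% and 13.2% with DCBQ. The one from 158444001, with 14 CpGs, read 14.85%, 11.43% and 11.16% in controls and 8.15%, 9.37% and 7.66% with DCBQ. The groups overlapped in the former and were apart in the latter, where the difference was −4.09 percentage points (limma standard error 3.3, unadjusted p = 0.246). The SDs of the latter were 2.06 points in controls and 0.88 with DCBQ. In DLGAP2 the tile with the most CpGs (25, chromosome 8, from 1442001) read 8.17%, 10% and 12.18% in controls and 9.5%, 12.89% and 9.14% with DCBQ, with overlapping groups. The highest ROBO1 tile (chromosome 3, from 79498001, 7 CpGs) read 16.65%, 17.26% and 14.29% in controls and 21.43%, 21.36% and 20.24% with DCBQ. Here all DCBQ samples were higher, at 21.01% ± 0.67 against 16.06% ± 1.57 (SD, n = 3 each). The difference was 4.94 percentage points (limma standard error 9.26, unadjusted p = 0.606). This standard error also rests on tiles of similar mean level, and the spread within this tile was much smaller. DLG2 had a tile of 10 CpGs (chromosome 11, from 83667001) at 13.14%, 14.73% and 9.92% in controls and 11.45%, 13.66% and 12.89% with DCBQ, where the groups overlapped.

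Of 18 lists of genes, 9 had no chosen tile near any member. These were the genes of 5mC oxidation and removal, which include the TET enzymes (0 of 136 tiles), DNA methyltransferases and maintenance (0 of 148) and xenobiotic metabolism (0 of 161). The others were urothelial and epithelial markers (0 of 148), leukocyte, endothelial and fibroblast markers (0 of 113), HOX genes (0 of 185), imprinted genes (0 of 327), germline genes (0 of 146) and housekeeping genes (0 of 108). At the share of all tiles, 0.544%, sets of this size would hold about 1 tile or fewer each, apart from the imprinted genes. Their mean 5hmC was 2.41% (housekeeping) to 4.14% (leukocyte, endothelial and fibroblast), beside 3.8% over all tiles.

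Among the other lists, developmental transcription factors outside the HOX clusters had 7 chosen tiles of 948, near DLX3, OTX2, PAX7, PRDM16, RUNX2 and ZIC4. The methylation markers of urothelial tumours had 3 of 376, near CDH13, MYO3A and ZIC4. Other lists had 1 or 2 each: KEAP1 for the NRF2 list, PCDHB8 and PCDHB16 for clustered protocadherins, and RXRA for bladder cancer drivers. Also near chosen tiles were LGR6 for WNT signalling, CDH2 for the TGF-beta and epithelial-mesenchymal list, and CDH2 and CDH13 for adhesion genes. In the lists named here with a chosen tile the shares, from 0.166% to 0.798%, were of the order of the 0.544% over all tiles.

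KEAP1 encodes the sensor that targets the antioxidant factor NRF2 for degradation and that quinones modify. Its tile (chromosome 19, 10493001 to 10494000, 6 CpGs) read 15.99%, 6.98% and 5.79% in controls and 7.89%, 13.27% and 13.73% with DCBQ, and the groups overlapped. EPHB4 encodes a receptor for ephrin-B ligands (chromosome 7, from 100811001, 7 CpGs), and its tile read 6.12%, 21.67% and 9.98% in controls and 30.07%, 15.71% and 21.67% with DCBQ. The groups overlapped, since control 2 lay above DCBQ 2. RXRA encodes a nuclear receptor that pairs with many others (chromosome 9, from 134366001, 11 CpGs), and its 5hmC was 17.64%, 12.03% and 12.99% in controls and 8.65%, 11.91% and 8.62% with DCBQ. All controls were higher, while 5mC was lower in all controls, at 56.28%, 59.9% and 56.47% against 66.01%, 63.49% and 65.16%. By limma the 5hmC difference was −4.49 percentage points (standard error 4.18, unadjusted p = 0.31) and the 5mC difference 7.34 (standard error 2.03, unadjusted p = 0.00911, adjusted p = 0.732).

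PRDM16, a transcription factor of brown fat and haematopoietic cells, had a tile with the microRNA gene MIR4251 in its span (chromosome 1, from 3128001, 6 CpGs). It read 6.72%, 13.38% and 8.35% in controls and 17.46%, 16.56% and 9.32% with DCBQ, with overlapping groups. CDH2 encodes N-cadherin (chromosome 18, from 27941001, 5 CpGs), and its tile read 17.95%, 23.02% and 8.3% in controls and 11.55%, 5.38% and 13.1% with DCBQ. LGR6, a receptor for R-spondins (chromosome 1, from 202302001, 7 CpGs), read 11.11%, 9.79% and 13.92% in controls and 8.89%, 16.33% and 9.65% with DCBQ. The CDH2 and LGR6 groups overlapped as well.

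The comparison of DCBQ with control asked whether the exposure altered either mark. Over the 1014 tiles, mean 5hmC was 11.66%, 12.62% and 11.79% in controls and 12.44%, 12.31% and 12.72% with DCBQ. The groups overlapped, at 12.02% ± 0.52 and 12.49% ± 0.209 (SD, n = 3 each), a difference of 0.47 percentage points (standard error 0.323). Over all tiles the means were 3.731% ± 0.08 and 3.868% ± 0.174, and DCBQ 3 was highest there too, at 4.06%. Of the chosen tiles 54.9% were higher with DCBQ and 45.1% lower, against 52.9% and 47.0% of all tiles. Because each of the 6 columns had to reach 5%, the rule limits how far the groups can lie apart in this mark.

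In 5mC, which the rule did not use, the chosen tiles read 60.23%, 58.82% and 59.66% in controls and 58.51%, 58.3% and 58.43% with DCBQ. All DCBQ samples lay below all controls, at 58.412% ± 0.106 against 59.572% ± 0.708 (SD, n = 3 each), a difference of −1.16 percentage points (standard error 0.413). The same direction was seen over all tiles, −0.523 (standard error 0.118), and over tiles with 40% to 70% 5mC that were not chosen, −0.858 (standard error 0.177). With every column centred on its mean over all tiles, the difference in the chosen tiles was −0.634 percentage points. Of the chosen tiles 58.3% were lower with DCBQ, against 60.2% of all tiles.

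Tile by tile, limma called no chosen tile in either mark at an adjusted p under 0.05. The models were fitted to 201935 tiles for 5hmC and 210465 for 5mC over every contig. They called 0 tiles in all (0.0% in each mark), and the smallest adjusted p was 0.973 for 5hmC and 0.714 for 5mC. For 5hmC the 6 columns compared here also chose the tiles, so the share of chosen tiles at a small p is shaped by the choice. At an unadjusted p under 0.05 there were 9 chosen tiles for 5hmC (0.888%), 5 higher and 4 lower, against 4.83% of all tiles. With one prior spread for all tiles in place of one that follows the mean, 108 chosen tiles (10.7%) had such a p, against 5.35% of all tiles, so the order of the shares depends on this setting. For 5mC there were 127 (12.5%), 45 higher and 82 lower, against 6.2% of all tiles fitted. Of tiles with 40% to 70% 5mC that were not chosen, 5.82% had such a p. The median SD within groups was 5.37 percentage points of 5mC in the chosen tiles, 2.96 in other tiles with 40% to 70% 5mC and 1.91 in all tiles. For 5hmC it was 4.56, 2.36 and 1.53 points. The limma error rests in part on tiles of similar mean level, and the chosen tiles spread more than those. The part of this in the 5mC share was not tested.

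The 3 DCBQ samples lay above the 3 controls in 5hmC in 72 chosen tiles (7.1%), against 5.55% of all tiles, and below them in 46 (4.54%), against 4.39%. In 5mC they lay above in 41 (4.04%), against 3.38%, and below in 85 (8.38%), against 8.11%. These shares were near those of all tiles.

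The chosen tile with the smallest p for higher 5hmC (chromosome 1, 38959001 to 38960000, 6 CpGs) lay across the pseudogene EIF1P2. Its 5hmC was 5.61%, 7.17% and 5.87% in controls and 25.45%, 16.88% and 23.61% with DCBQ. Its 5mC was 83.5%, 77.98% and 75.45% in controls and 42.65%, 50.47% and 54.93% with DCBQ. The groups were far apart in both marks. By limma, 5hmC was 15.76 percentage points higher (standard error 5.55, unadjusted p = 0.0186, adjusted p = 0.973), and the 5mC difference was −29.63 points (standard error 3.7, unadjusted p = 0.000109, adjusted p = 0.714). A second tile of this kind lay in the non-coding gene LINC01725 (chromosome 1, from 83576001, 6 CpGs), at 10.55%, 6.05% and 5.56% 5hmC in controls and 27.2%, 18.92% and 21.53% with DCBQ. Its 5mC was 26.6%, 35.58% and 36.78% against 18.52%, 8.57% and 16.67%. The third (chromosome 4, from 39999001, 6 CpGs), outside genes, read 5.77%, 5.0% and 8.33% against 10.42%, 22.22% and 17.46% in 5hmC, and its 5mC difference was −12.34 points. All 3 were apart in both marks, in opposite directions.

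The remaining tile of this rank lay within 1500 bp of PLA2G10, which encodes a secreted phospholipase, and of NPIPA3, a member of a family of near-identical copies in which read placement is uncertain (chromosome 16, from 14702001, 10 CpGs). It read 6.27%, 6.76% and 5.23% in controls and 15.22%, 17.72% and 11.89% with DCBQ, a difference of 8.86 points (limma standard error 3.43, unadjusted p = 0.0284). In 5mC its groups overlapped.

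In the other direction, DSEL, a relative of the epimerase that makes dermatan sulfate (chromosome 18, from 67508001, 5 CpGs), read 20%, 20% and 27.33% 5hmC in controls and 8.82%, 5.0% and 8.26% with DCBQ. The difference was −15.08 points (limma standard error 6.12, unadjusted p = 0.0349), with 5mC 5.79 points higher. A tile across a transcribed pseudogene on chromosome 9 (from 94152001) rested on 14 CpGs and read 13.37%, 18.46% and 11.48% in controls and 5.75%, 7.36% and 5.29% with DCBQ. Tiles on chromosome 1 (from 4213001, 5 CpGs) and chromosome 19 (from 53953001, 5 CpGs), both outside genes, differed by −11.35 and −7.87 points. In all 4 the DCBQ samples lay below every control, and mean 5mC was higher with DCBQ.

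For 5mC, the smallest p among tiles that were higher with DCBQ belonged to ADAMTS2, which encodes the protease that trims the amino end of procollagen (chromosome 5, 179233001 to 179234000, 6 CpGs in the 5mC table). Its 5mC was 72.48%, 68.52% and 75.02% in controls and 93.92%, 89.37% and 90.22% with DCBQ. The groups were well apart, by 19.16 points (limma standard error 2.04, unadjusted p = 4.03e-05, adjusted p = 0.714), and its 5hmC was 16.18% ± 9.13 in controls and 6.34% ± 0.85 with DCBQ (SD, n = 3 each). FSD2 (chromosome 15, from 82791001) read 54.16%, 58.1% and 64.63% against 74.8%, 75.91% and 80.91%, also apart. Tiles outside genes on chromosome 14 (from 41475001) and chromosome 4 (from 165125001) were 16.94 and 9.01 points higher.

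Among tiles with lower 5mC, FAM20C encodes the kinase of secreted proteins in the Golgi, and its tile had the most CpGs of those named for their p (23 in the 5mC table, chromosome 7, from 226001). Its 5mC was 59.79%, 54.1% and 57.18% in controls and 41.1%, 43.05% and 46.22% with DCBQ. The groups were apart, by −13.57 points (limma standard error 2.44, unadjusted p = 0.000952, adjusted p = 0.714), while its 5hmC overlapped, at 13.25%, 12.74% and 8.24% against 18.07%, 17.52% and 10.23%. MAGI3, a scaffold protein of cell junctions (chromosome 1, from 113472001, 5 CpGs), read 70.22%, 73.1% and 68.6% against 60.12%, 59.06% and 59.2% in 5mC. These groups were apart as well, by −11.18 points.

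**Figure D5:**
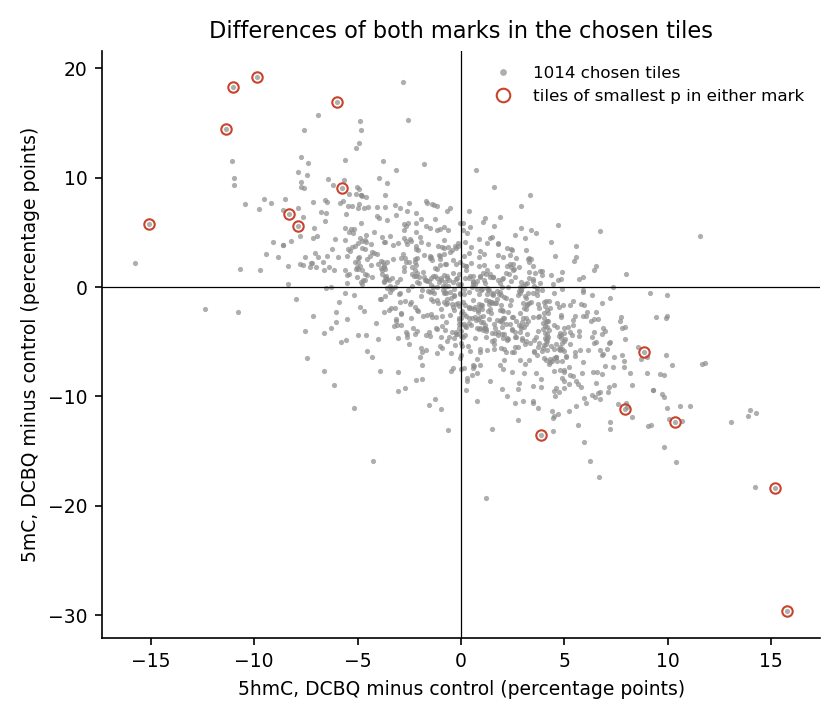
Difference of DCBQ minus control in 5hmC (x axis) and in 5mC (y axis), in percentage points of the group means, for the 1014 chosen tiles (grey). Open circles are the tiles with the smallest limma p in either mark and direction. Most points lie in the upper left and lower right, where the marks differ in opposite directions (736 tiles, 72.6%). The share was similar over all tiles, 69.6%, and over tiles with 40% to 70% 5mC that were not chosen, 68.2%.

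Across the chosen tiles the differences of the marks were inversely related (Pearson r = −0.617 over 1014 tiles). Over all tiles r was −0.61, and over tiles with 40% to 70% 5mC that were not chosen −0.571. These are correlations across tiles, which are not independent replicates. The column with the highest 5hmC also had the lowest 5mC in 48.2% of the chosen tiles, against 45.8% of all tiles. The marks come from related libraries of the same cells, and whether shared reads or exchange between the marks gives this relation cannot be told apart here. Between any pair of samples, 5hmC across the chosen tiles had r between −0.072 and 0.074, against 0.374 to 0.409 across all tiles. The former were computed on the columns that chose the tiles, so nothing is read from them about whether the rank of a tile repeats.

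The threshold itself cuts through a continuous range. Of the 1014 tiles 184 had means less than 0.5 points above 10%, and 221 tiles with every column at 5% or more had means less than 0.5 points below it. Just inside lay a tile in RIMBP2, which encodes a presynaptic protein (chromosome 12, from 130709001), at 10.004%, and tiles outside genes at 10.011% (chromosome 7, from 34175001) and 10.013% (chromosome 21, from 10368001). Just outside lay a tile in DAPK1, which encodes a kinase of cell death (chromosome 9, from 87589001), at 9.999%, with tiles outside genes at 9.999% (chromosome 19, from 5421001) and 9.987% (chromosome 5, from 4580001).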

How the data were processed

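DNA of SV-HUC-1 cells was read in 12 libraries, RRBS and oxidative RRBS, 3 of each per condition. Per the labels' protocols, a QIAamp kit gave the DNA and the Ovation RRBS Methyl-Seq and TrueMethyl oxBS kits the libraries. The submitters' processing notes name hg38, cutadapt, Trim Galore and BSMAP 2.90, without their roles. Each deposited value is the fraction of a mark at a CpG, in a 5mC table of 3689712 CpGs and a 5hmC table of 3534314. Per the file names, they need at least 5 reads and merge the strands. The sources used here do not say how the authors combined RRBS and oxidative RRBS into the 6 columns of each table, whose names give the condition and a number. The depth per CpG is unknown, so no interval from reads is given.

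Tile levels are unweighted means over CpGs, printed as percent. The tiles were chosen on these values, and the members and gene lists were chosen with earlier results of these data known. For each mark, limma 3.58.1 (lmFit and eBayes with a mean-variance trend, R 4.3.3) was fitted to all tiles with at least 5 CpGs on every contig, on the fraction scale, with Benjamini-Hochberg adjustment. On simulated data the fit was checked only for returning the size of an added shift. That check does not show which differences it could call in these data. Summaries used pandas 2.3.3. Genes came from RefSeq's table for GRCh38.p14, with 19126 protein-coding genes placed once on chromosomes 1 to 22, and starts from its promoter windows. A gene was named where the tile lay in its span or within 1500 bp.

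Tiles were named by rule: the 12 highest in 5hmC, the 4 higher and 4 lower with the smallest p in each mark, the 3 longest runs, the 5 genes with the most chosen tiles (ties by mean 5hmC, also among the runs), the highest chosen tile of each gene list, and 3 tiles on each side of the threshold. The MKNK2 tile and the other 2 with the most CpGs, the tiles of the stricter rule and the printed promoters were chosen after values were seen. Genes on chromosome 8 were left out of the printed promoters. Alternatives changed the rule, the grid, the columns, the scale, the trend and the block. The counts of 1 of the gene lists are not reported here.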

Additional observations from a re-analysis of the deposited data

How the results depend on the processing

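The number of chosen tiles depended on the rule. It was 34 with 10% or more in each sample, 259 with at least 10 CpGs, 136 with medians over CpGs, 2385 on the control columns and 3016 on the DCBQ columns. It ranged from 1270 to 1430 when 1 column was left out, and between 894 and 918 of the 1014 tiles remained. With CpGs of odd rank only it was 990, of which 463 were among the 1014. The 5hmC difference over the chosen tiles was −3.616 percentage points in tiles chosen on the controls and 4.483 in tiles chosen on DCBQ, as each set is chosen for a high level in its own columns. It ranged from 0.289 to 0.768 without 1 column, with 0.34 after centring. The 5mC difference ranged from −1.535 (without control replicate 2) to −0.831 (without control replicate 1), was −0.634 after centring and −0.729 with at least 10 CpGs.

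limma called 0 tiles in both marks under all 11 alternatives. The chosen tiles with an unadjusted p under 0.05 for 5hmC numbered 3 (without control replicate 2) to 10 when 1 column was left out, 5 without control replicate 1 (0.493%, against 4.48% of all tiles), 16 on the arcsine scale (1.58%, against 5.04%), 3 with at least 10 CpGs (1.16%, against 4.88%) and 108 without the trend (10.7%, against 5.35%). The share lay below that of all tiles in the other settings and above it without the trend. In every setting it is shaped by the choice of tiles on 5hmC. For 5mC they numbered 126 to 157 without 1 column, and 41 of the 308 chosen tiles with at least 10 CpGs in the 5mC table. With at least 10 CpGs, 145 of 259 chosen tiles were higher with DCBQ in 5hmC and 143 of 308 in 5mC, lower counts because fewer tiles enter. Same-numbered samples did not deviate together across tiles, with correlations of −0.035 to 0.009 in 5hmC and −0.004 to 0.006 in 5mC. The labels do not say whether the numbers pair the samples, and correlations of noisy tile values cannot settle it. With the replicate number as a block, 2 chosen tiles had an unadjusted p under 0.05 for 5hmC and 151 for 5mC. The 14 tiles named for their p kept their direction in 286 of 286 alternative fits, and none was called. They were chosen for a small p in these same values, and some of the fits share the main estimate. The kept direction is therefore no independent support.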

Other observations

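The thresholds were also met outside chromosomes 1 to 22, by 74 of 6116 tiles on chromosome X (1.21%), 31 of 1060 on chromosome Y (2.92%) and 129 of 8317 on other contigs (1.55%), against 0.544% on chromosomes 1 to 22. Mean 5hmC of those tiles was 12.21%, 11.96% and 12.29%, and of all tiles there 4.58%, 5.53% and 4.66%. None of 15 mitochondrial tiles met them, and their mean 5hmC was 0.75%.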
